A study of Mus musculus with 20 samples.

Results

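Interleukin-1 family cytokines and the epithelial alarmins are proteins through which keratinocytes signal damage to neighbouring cells. The 9 genes followed were chosen by name from the rows of the count table: the agonists Il1a and Il1b, the antagonist Il1rn, the receptor chains Il1r1 and Il1rap, the decoy receptor Il1r2, and the cytokines Il18, Il33 and Tslp. All 9 were present among the 25719 genes of the table. Of these, 8 passed the filter on low counts and entered the model of 12424 genes, and Il1b did not.

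The libraries came from keratinocytes sorted from ear and dorsal skin of mice that carry floxed Cyp11b1, the gene of the last enzyme of corticosterone synthesis. K14-CreERTam x Cyp11b1 L2/L2 mice (cKO) express a tamoxifen-dependent Cre from the promoter of a basal keratin, so that deletion is aimed at keratinocytes, and the controls (fl_ctrl) were Cre-negative Cyp11b1 L2/L2 littermates. Every mouse, controls included, had both floxed alleles and received tamoxifen for 5 days, and cells were taken on day 6. In the topical groups (cKO_local and fl_ctrl_local) tamoxifen in ethanol went onto the ears (20 µl) and the dry-shaved back (100 µl). In the systemic groups (cKO_systemic and fl_ctrl_systemic) 100 µl of a 10 mg/ml solution in oil and ethanol was injected into the peritoneum. Each of the 4 groups held 5 mice, whose sorted cells gave 1 library each, and age is not given in the sources used here. Topical and systemic mice therefore differed in shaving and solvent as well as in the route, and these cannot be told apart.

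Libraries held 11588851 to 50082771 counts and 14536 to 18750 genes with a count. Keratinocyte markers summed to 48091 to 132130 counts-per-million (CPM) in every library, against 10.2 to 38.4 CPM for 18 immune markers and at most 24.6 CPM for fibroblast, 5.44 CPM for endothelial and 23.2 CPM for melanocyte markers. Cyp11b1 itself had 0 to 6 counts per library, so the deletion could not be read from these data. Before any comparison, 6 libraries stood apart: all 5 systemic controls and systemic cKO 2 had 8.89 to 19.8 CPM of Laptm4a, a lysosomal membrane protein gene, against 40.2 to 118 CPM in the other 14. Since every systemic control is among these 6, that split cannot be told apart from the route in controls or from genotype in the systemic groups. The topical groups hold none of them. A covariate for the split, used below, is therefore set by systemic cKO 2 against the other systemic cKO libraries. Values adjusted by it rest on that library.

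IL-1α and IL-1β bind the same receptor, in which IL-1R1 carries the signal and the accessory protein encoded by Il1rap is the shared second chain. The product of Il1rn occupies IL-1R1 without signalling, and IL-1R2 captures the cytokines but lacks a signalling domain. IL-18 and IL-33 use related receptors, and the IL-33 receptor again needs the Il1rap chain. TSLP is not an IL-1 family member, but like IL-33 it is an alarmin that barrier epithelia make and that acts on dendritic cells and type 2 immune cells. Keratinocytes are known to store IL-1α and, in part of the epidermis, IL-33, while IL-1β of skin comes largely from myeloid cells.

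On a scale that divides CPM by the length of a gene's merged exons, the decoy receptor was the highest of the 9 transcripts. The order of the top genes depends on that length. In CPM alone Il1rn averaged 109, Il33 80.6 and Il1r2 74.3, with 5535, 2886 and 1908 merged exonic bases. Merged exons cover all annotated transcripts of a gene, and which of them were in use was not determined. Il1r2 averaged 38.9 ± 19.2 CPM per kilobase (SD, n = 20), Il33 27.9 ± 10.7 and Il1rn 19.7 ± 4.76. Tslp followed at 7.67 ± 5.36 CPM per kilobase. The signalling receptor and the agonist lay far below these: Il1r1 averaged 1.76 ± 0.219, Il1a 1.09 ± 0.393 and Il1rap 1.06 ± 0.266 CPM per kilobase. Il18 (0.414 ± 0.321) and Il1b (0.121 ± 0.114) were at the bottom. Each gene was compared with its neighbour in this order within each library: Il1r2 exceeded Il33 in 16 of 20 libraries, Il33 exceeded Il1rn in 14, and Il1rn exceeded Tslp in 19. The order of Il33 and Il1rn differed by route: Il33 was above in all 10 systemic libraries and in 4 of 10 topical ones. In topical controls Il1rn averaged 23.9 ± 3.18 and Il33 21.5 ± 5.25 CPM per kilobase (SD, n = 5). Il1a exceeded Il1rap in only 9 of 20, so the order of those 2 genes was not resolved. Within a library, antagonist transcript exceeded agonist transcript throughout: the ratio of Il1rn to Il1a per kilobase had a median of 18.1 and ranged from 9.27 (topical cKO 3) to 99.1 (systemic cKO 4). Decoy receptor likewise exceeded signalling receptor, with a median Il1r2 to Il1r1 ratio of 18.2 and a range of 8.77 to 57.3.

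**Figure D1:**
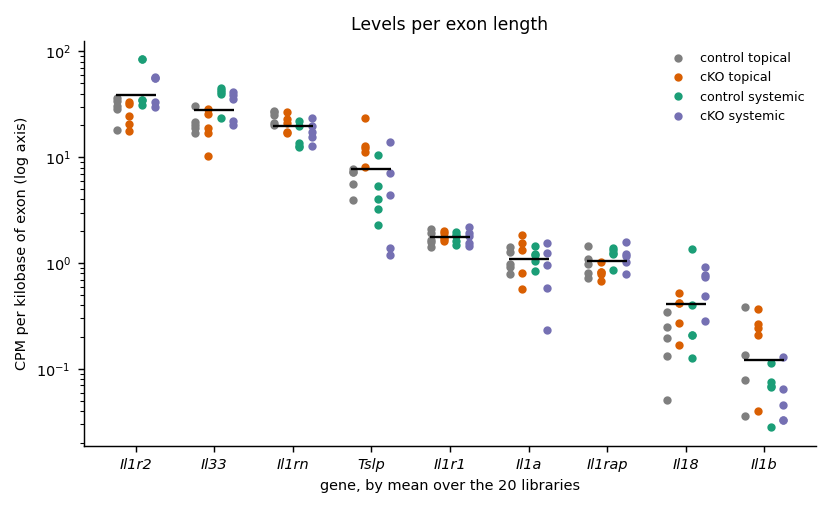
CPM per kilobase of merged exon (log axis) for the 9 genes in order of their mean, 1 point per library coloured by group, with a bar at the mean of 20 libraries. The 3 most abundant genes, Il1r2, Il33 and Il1rn, have means of 19.7 to 38.9, and Il1b lies lowest with a mean of 0.121; its topical control library with no count is not drawn.

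Positions are those of GENCODE M21 on GRCm38, the build named in the submitters' processing notes. Il1a (chr2:129299610-129309972) and Il1b (chr2:129364570-129371139) lie 54.6 kb apart on the minus strand, and Il1rn (chr2:24336853-24351494, plus strand) is far from both on the same chromosome. Il1r2 (chr1:40074079-40125231) and Il1r1 (chr1:40225080-40317257) are 99.8 kb apart on the plus strand. Il1rap is at chr16:26581704-26730117, Il18 at chr9:50554827-50581840 and Il33 at chr19:29925114-29960718, all on the plus strand. In Il1a, 222 of 1974 exonic bases (11.2%) also belong to the antisense gene Gm14023, and in Il1rap 552 exonic bases (4.86%) belong to the antisense Gm20319. The library kit named in the labels does not mark strand, so reads from those stretches cannot be assigned to either gene.

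Promoter sequence is shown for Il33, the member with the smallest adjusted p between routes in controls, and for the agonist and antagonist pair Il1a and Il1rn. RefSeq promoter windows on GRCm38.p6 were searched for 8 of the 9 genes, and Tslp was left out of the search. There were 2 starts for Il33, 2 for Il1r1 and 3 for Il1rn. The counts are per gene and do not show which start was used. The bases before each start were searched on both strands for TGANTCA (the AP-1 site), for TATAAA (the TATA box) and for the full palindromic glucocorticoid response element. Capitals mark a match.
Il33, first start, chr19:29924963-29925112, plus strand: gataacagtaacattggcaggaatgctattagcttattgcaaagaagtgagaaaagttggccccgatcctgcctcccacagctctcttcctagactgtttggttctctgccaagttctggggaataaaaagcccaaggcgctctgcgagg
Il33, second start, chr19:29945640-29945789, plus strand: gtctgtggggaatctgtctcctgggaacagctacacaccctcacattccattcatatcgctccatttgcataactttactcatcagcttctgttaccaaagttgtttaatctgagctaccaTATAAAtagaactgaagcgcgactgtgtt
Il1rn, first start, chr2:24336710-24336852, plus strand: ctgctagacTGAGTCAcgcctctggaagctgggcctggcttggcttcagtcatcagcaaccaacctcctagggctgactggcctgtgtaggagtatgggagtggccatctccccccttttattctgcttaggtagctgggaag
Il1a, chr2:129309973-129310122, minus strand: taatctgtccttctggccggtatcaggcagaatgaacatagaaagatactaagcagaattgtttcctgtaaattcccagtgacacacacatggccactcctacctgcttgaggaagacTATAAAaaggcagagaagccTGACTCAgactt
The TATAAA of the second Il33 start lay 29 to 24 bases before it, and that of Il1a 32 to 27 bases before its start. The AP-1 letters of Il1a lay 12 to 6 bases before the start, and those of Il1rn 141 to 135 bases before. Among 32851 RefSeq windows of 150 bases, 4.24% held the AP-1 letters, 7.57% the TATA letters and 0.17% the full glucocorticoid response element. No window of these 8 genes held the last, which says only that these letters are not in those 150 bases.

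Deletion of Cyp11b1 after topical tamoxifen was the first comparison, and it asks whether loss of keratinocyte glucocorticoid synthesis in treated skin alters the cytokines. Tslp was the gene that parted the groups. Its level was 10.7 to 31.6 CPM in topical cKO and 5.30 to 10.2 CPM in topical controls, without overlap, but the difference did not pass the test over all genes. None of the 8 tested genes was called (edgeR quasi-likelihood test, Benjamini-Hochberg adjusted p under 0.05), against 0.129% of all genes tested. An unadjusted p under 0.05 was found for 1 of 8, against 5.66% of all genes. Log2 fold changes were positive for 4 genes and negative for 4, with a median of -0.02 against 0.02 over all 12424 genes.

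Tslp read 31.6, 10.7, 15.1, 17.0 and 16.4 CPM in topical cKO 2, 3, 4, 5 and 7. In topical controls 1, 3, 5, 6 and 7 it read 5.30, 7.36, 9.62, 9.57 and 10.2 CPM. Every cKO library was above every control, though the lowest cKO library (10.7 CPM) and the highest control (10.2 CPM) almost met, and topical cKO 2 alone was above 17.0 CPM. Of all genes tested, 0.845% had their lowest cKO library above their highest control. The group means were 18.1 ± 7.90 and 8.42 ± 2.06 CPM (SD, n = 5 each), a fitted log2 fold change of 1.11 with a SE of 0.52 and a 95% interval of 0.02 to 2.21. By edgeR's quasi-likelihood test the unadjusted p was 0.0470 and the adjusted p 0.881. With the libraries of both topical groups fitted alone, the adjusted p was 0.250, and without topical cKO 2 the log2 fold change was 0.82.

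The other genes of the topical comparison overlapped between genotypes. Il18 had the next largest fold change, 0.83 (SE 0.62, adjusted p = 0.994), from 0.372 ± 0.144 CPM for cKO and 0.201 ± 0.116 CPM for controls, levels that rest on 1 to 11 counts per library. Il33, an alarmin like Tslp, was at 57.9 ± 21.1 and 62.0 ± 15.1 CPM, and the 95% interval of its log2 fold change ran from -0.63 to 0.44. For the antagonist Il1rn the interval was -0.60 to 0.22 and for Il1r2, the decoy, -0.81 to 0.41. The narrowest interval belonged to the signalling receptor Il1r1, -0.23 to 0.33 around 0.05.

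After systemic tamoxifen the genotypes overlapped in all 9 genes. None of the 8 tested was called (edgeR quasi-likelihood test), against 1.89% of all genes. None had an unadjusted p under 0.05, against 15.3% of all genes. Their median log2 fold change was -0.02, against 0.00 over all genes. Without systemic cKO 2 the count of members called stayed at 0, while the count over all genes went from 235 to 792.

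Tslp is the gene in which that library matters most. The systemic cKO libraries 2, 4, 5, 6 and 7 read 18.7, 1.86, 1.58, 5.82 and 9.44 CPM, and the systemic controls 1, 3, 4, 5 and 6 read 3.06, 7.17, 5.33, 4.36 and 14.1 CPM. Both the highest and the lowest value of these 10 were in cKO libraries, and the highest was systemic cKO 2, which also had the fewest counts. The log2 fold change was 0.04 (SE 0.54, 95% interval -1.08 to 1.16, edgeR adjusted p = 0.983), and it was -0.63 (adjusted p = 0.509) without systemic cKO 2. Over 9 other settings it ran from -0.86 to 1.42, and none of them called it. Il33 was 90.9 ± 28.2 CPM in systemic cKO and 112 ± 25.5 CPM in controls, a log2 difference of -0.30 (SE 0.26, adjusted p = 0.648). Il18 had a log2 fold change of 0.45 and Il1a of -0.41 (SE 0.37, adjusted p = 0.661). Il18 ranged from 0.23 to 1.27 on leaving out a library, the latter without systemic control 1, and Il1a from -0.68 without systemic cKO 2 to -0.13 without systemic cKO 4.

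The genotype effect was then compared between routes by an interaction term. None of the 8 genes was called, against 0.250% of all genes, and none had an unadjusted p under 0.05. Tslp had the largest estimate, a genotype effect lower by 1.07 on the log2 scale in systemic than in topical mice, with a 95% interval of -2.64 to 0.49 (edgeR adjusted p = 0.546). It was -1.75 without systemic cKO 2 and -0.59 without systemic control 6. With low Laptm4a as a covariate, which rests on systemic cKO 2 alone, it was 0.31. Il1a came next at -0.60 (SE 0.52, adjusted p = 0.636). For Il1r1 the interval was -0.42 to 0.37 and for Il1rn -0.26 to 0.89. The topical difference of Tslp is therefore not shown to differ from the systemic result.

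**Figure D2:**
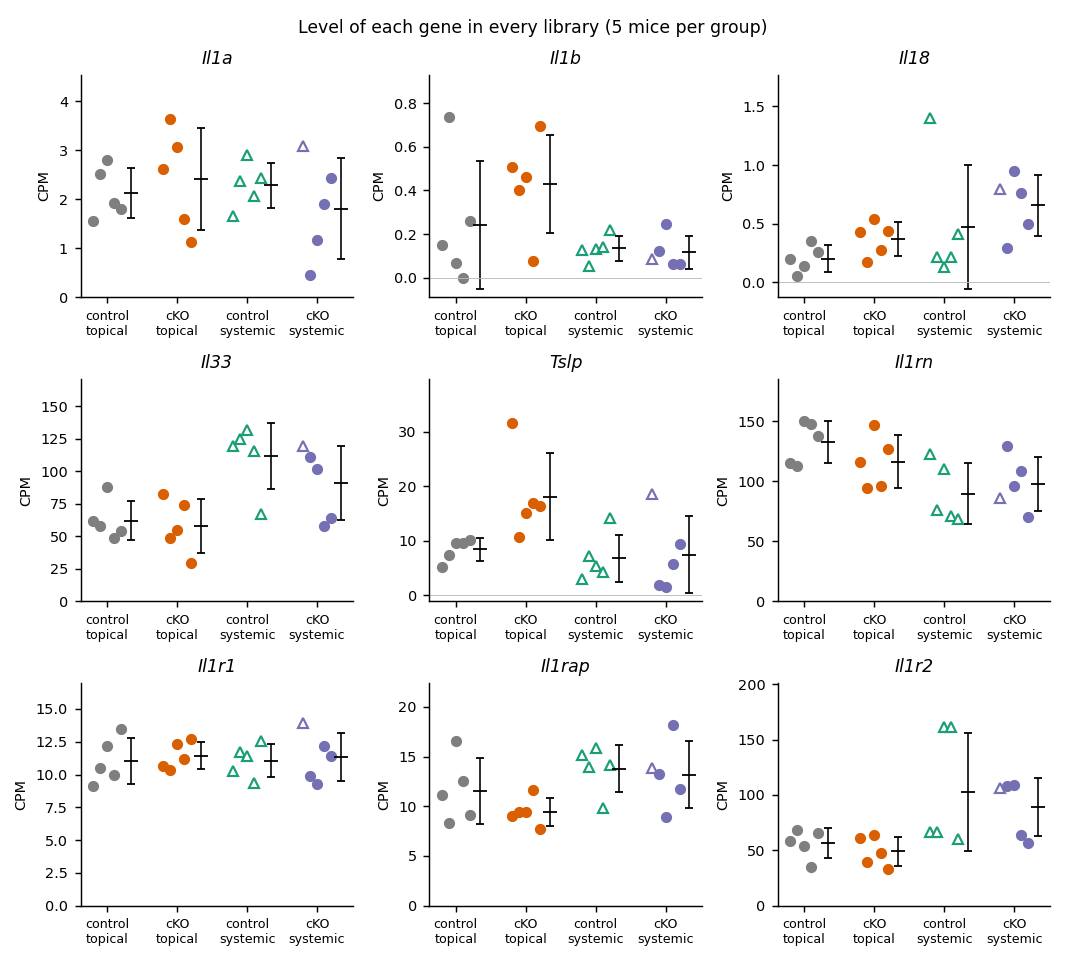
CPM of each of the 9 genes in every library, by group in columns of 5 mice; open triangles are the 6 libraries with Laptm4a below 30 CPM, and the bar beside each group is its mean with SD. All 5 topical cKO libraries lie above the topical controls for Tslp, 4 of 5 systemic controls lie above the topical controls for Il33, and Il1r1 stays between 9.13 and 13.9 CPM in all 20.

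The route was compared among controls, which carry no Cre, so that tamoxifen deleted nothing in them. Il33 and Il1r2 were higher after systemic than after topical tamoxifen, 1.80-fold (95% interval 1.24 to 2.62) and 1.82-fold (1.19 to 2.79), and Il1rn was lower without passing the threshold. Both called genes were higher, 2 of the 8 tested, against 18.3% of all genes called in either direction. The median log2 fold change of the 8 was 0.19, against 0.00 over all genes. This comparison uses the same control libraries as the genotype comparisons. A lower number of cells of a kind and less RNA per cell cannot be told apart in such bulk samples.

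IL-33 is stored in the nucleus and released on cell damage. Il33 read 119, 125, 131, 115 and 67.2 CPM in systemic controls 1, 3, 4, 5 and 6, and 61.6, 57.7, 87.7, 48.8 and 54.1 CPM in topical controls 1, 3, 5, 6 and 7. Of the 5 systemic libraries, 4 were above the highest topical one, and systemic control 6 fell within the topical range. The log2 fold change was 0.85 (SE 0.26, edgeR adjusted p = 0.0280). The call was lost on leaving out any of 6 of the 10 libraries, topical controls 1, 3, 6 and 7 and systemic controls 3 and 4, with log2 fold changes of 0.77 to 1.01 and adjusted p of 0.0155 to 0.0644 over the 10. Of 9 other settings 7 called Il33 and 2 did not, low Laptm4a as a covariate among the latter. Its log2 fold changes over these settings were 0.34 to 0.89. Fibroblast and endothelial markers, which mark other cells able to express Il33, summed to at most 13.9 and 4.84 CPM in the 10 control libraries.

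IL-1R2 binds IL-1 on the cell surface or after shedding and passes on no signal. Il1r2 read 66.3, 66.3, 161, 161 and 59.8 CPM in systemic controls 1, 3, 4, 5 and 6, and 58.8, 68.6, 54.2, 34.7 and 65.6 CPM in topical controls 1, 3, 5, 6 and 7. Only systemic controls 4 and 5 lay above the topical range, and the other 3 fell inside it. The log2 fold change was 0.87 (SE 0.30, edgeR adjusted p = 0.0448), and it was 0.65 without either systemic control 4 (adjusted p = 0.143) or 5 (adjusted p = 0.128). Leaving out any of the 5 topical controls also ended the call, so that 7 of the 10 removals did. Of 9 other settings 4 called Il1r2 and 5 did not. The latter included a fit of only the libraries compared (edgeR adjusted p = 0.0571) and low Laptm4a as a covariate.

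For the antagonist the estimate had the opposite sign. Il1rn read 123, 75.9, 110, 71.1 and 68.8 CPM in systemic controls 1, 3, 4, 5 and 6, and 115, 113, 150, 148 and 137 CPM in topical controls 1, 3, 5, 6 and 7. In 4 systemic libraries it was below the lowest topical one, and systemic control 1 was not. The log2 fold change was -0.56 (SE 0.20), and its edgeR adjusted p of 0.0501 missed the threshold. Of the 10 fits that each left out a library, 2 called it, without systemic control 1 (0.0170) and without systemic control 4, and the other 8 gave adjusted p of up to 0.123. Of 9 other settings 4 called it, DESeq2's Wald test among them (0.0252), and 5 did not. With low Laptm4a as a covariate the change was -0.33 (adjusted p = 0.984), a value that rests on systemic cKO 2, a library outside this comparison. The ratio of Il1rn to Il1a per kilobase had a median of 26.3 in topical and 12.2 in systemic controls, with overlapping ranges of 15.9 to 27.3 and 10.1 to 26.5.

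No call was made for the remaining 5. Il18 was higher by 1.21 on the log2 scale (SE 0.60, adjusted p = 0.163), a value that was 0.39 without systemic control 1, which held 22 of its counts and 1.40 CPM. Il1rap was at 13.8 ± 2.33 CPM in systemic and 11.5 ± 3.27 CPM in topical controls (log2 fold change 0.26, SE 0.19). Il1a gave 0.12 (SE 0.37) and Il1r1 0.00 (SE 0.13). Tslp gave -0.27 (SE 0.53), with -0.75 without systemic control 6 and -0.09 without systemic control 1. With low Laptm4a as a covariate, which rests on systemic cKO 2, it was -2.32 (adjusted p = 0.612). With the summed dissociation genes as a covariate it was 0.10.

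Among the cKO mice the estimates of Il33 and Il1r2 had the same sign as in controls, and Tslp was lower after systemic tamoxifen, but none of the 8 genes was called, against 9.22% of all genes (edgeR quasi-likelihood test). Of the 8, 4 had an unadjusted p under 0.05, against 23.1% of all genes. These were Il1r2, Tslp, Il33 and Il1rap.

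Tslp was 7.47 ± 7.04 CPM in systemic and 18.1 ± 7.90 CPM in topical cKO (n = 5 each), and 4 systemic libraries lay below the lowest topical one. The exception was systemic cKO 2 at 18.7 CPM. The log2 fold change was -1.35 (SE 0.53, 95% interval -2.46 to -0.23, edgeR adjusted p = 0.129). Without the 6 libraries of low Laptm4a, which in this comparison removes systemic cKO 2 alone, it was -2.02 (SE 0.45, adjusted p = 0.00898). Leaving out topical cKO 2, the library with most Tslp, gave -1.04 (adjusted p = 0.298).

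Il1r2 read 107, 108, 109, 63.9 and 56.9 CPM in systemic cKO 2, 4, 5, 6 and 7, and 60.8, 39.7, 63.6, 47.1 and 33.5 CPM in topical cKO 2, 3, 4, 5 and 7. The first 3 systemic libraries stood clear of the topical range and the last 2 were at its upper edge, where 1 of them was inside. The log2 fold change was 0.86 (SE 0.30, edgeR adjusted p = 0.0717) and 0.79 without systemic cKO 2. Il33 read 120, 111, 102, 57.8 and 63.8 CPM in the same systemic libraries and 82.3, 48.8, 54.8, 74.4 and 29.4 CPM in the topical ones. Here too systemic cKO 2, 4 and 5 were above the topical range and 6 and 7 within it, and the fitted change was 0.65 (SE 0.26, adjusted p = 0.130). Il1rap, the shared receptor chain, was at 13.2 ± 3.36 CPM in systemic and 9.46 ± 1.42 CPM in topical cKO (log2 fold change 0.47, SE 0.19, adjusted p = 0.142). Il1rn differed less than in controls, by -0.24 (SE 0.20, adjusted p = 0.495), and the difference between these effects is the interaction given above. Il1a gave -0.49 (SE 0.37), with its lowest value of all 20 libraries, 0.464 CPM, in systemic cKO 4.

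**Figure D3:**
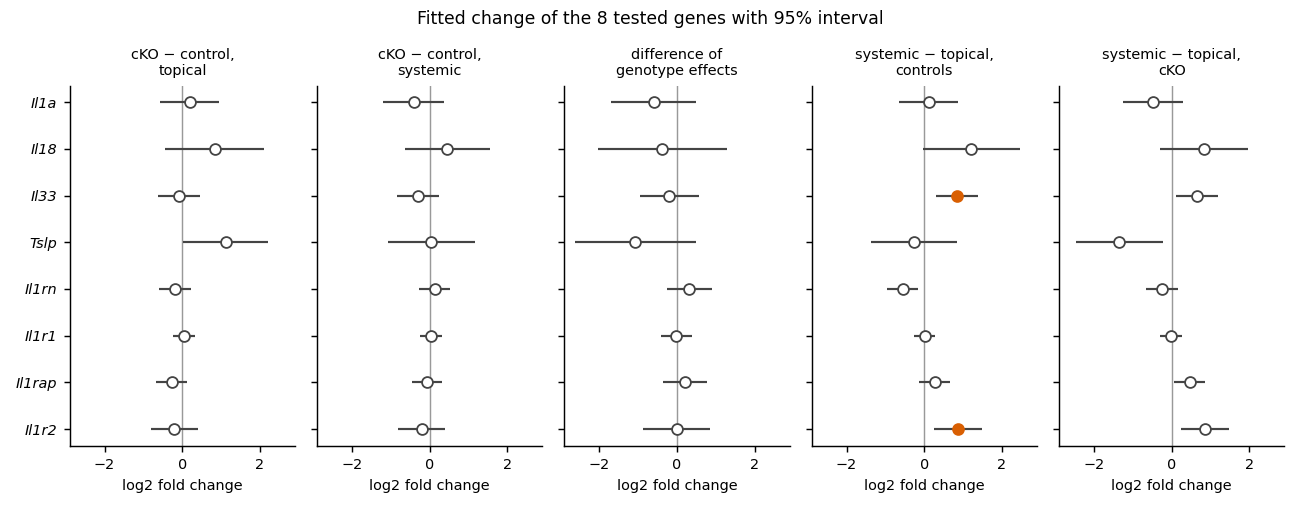
Fitted log2 fold changes of the 8 tested genes with 95% intervals in the 5 comparisons; filled orange points passed an adjusted p of 0.05. Only Il33 and Il1r2 in the route comparison of controls are filled, at 0.85 and 0.87, and the interval of Tslp in the topical genotype comparison runs from 0.02 to 2.21.

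**Figure D4:**
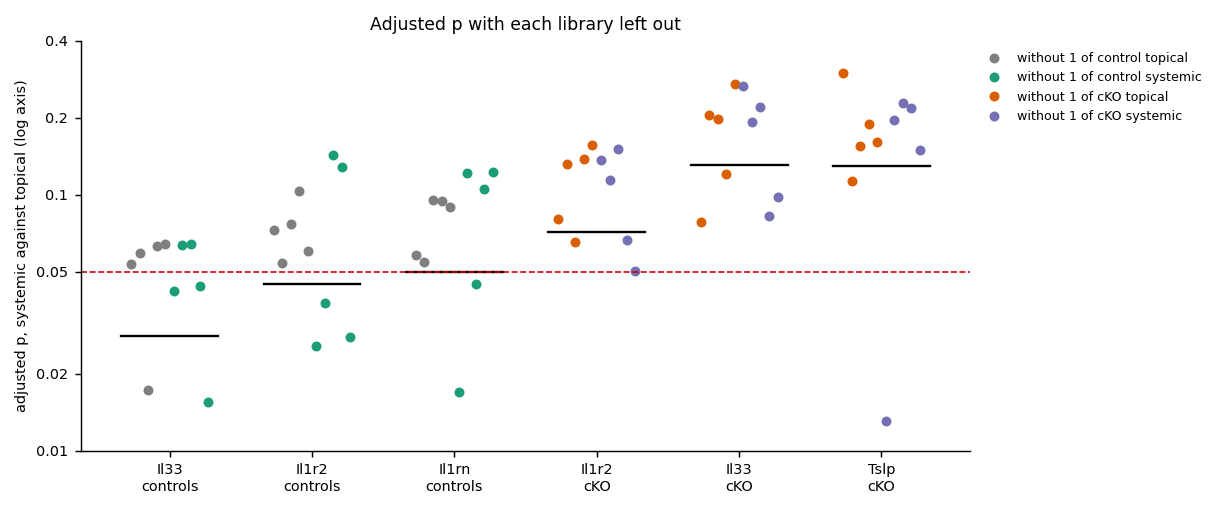
Adjusted p (log axis) of the systemic against topical difference when each library of the comparison is left out in turn, 10 points per gene coloured by the group of the library left out; the black bar is the value with all 20 libraries and the dashed line 0.05. Points for Il33 and Il1r2 in controls fall on both sides of the line, and for Tslp in cKO the point without systemic cKO 2 lies at 0.0130.

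Il1b was too low for the model, with 93 counts over 20 libraries and 0 to 14 in each. By group it had 25 counts in topical controls, 37 in topical cKO, 16 in systemic controls and 15 in systemic cKO. Its mean log2(CPM + 1) was lower in systemic than in topical cKO by a difference of -0.34 (exact two-sided permutation test over 252 arrangements, p = 0.0317; n = 5 each), which was not adjusted over the 4 pairwise contrasts. The other contrasts gave p of 0.238 for genotype after topical, 0.635 for genotype after systemic and 0.643 for route in controls by the same exact test. Leaving out any of 6 of the 10 cKO libraries took the first p to between 0.0556 and 0.0714. An edgeR fit without the filter on low counts gave a log2 fold change of -1.66 for the same contrast and did not call it (adjusted p = 0.232). The myeloid cells that are the main known source of IL-1β were barely represented, with all immune markers together at 24.8 to 38.4 CPM in systemic cKO and 11.9 to 25.3 CPM in topical cKO. The largest part of that sum was Cd74, with a mean of 12.7 CPM over the 20 libraries. Between routes in cKO the log2 fold changes of Cd74, H2-Aa and H2-Ab1 were 0.93, 0.79 and 0.69. Those of the myeloid genes Csf1r and Cxcr2 were -0.21 and -0.65, and none of these was called. The sum therefore does not measure a change of myeloid cells. Of the 18, 3 had no count in any systemic cKO library and 5 in any topical one; the part of these cells in the result was not tested.

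Il1r1 had the smallest range of the 9. It varied from 9.13 to 13.9 CPM over all libraries, a 1.52-fold range, against 20.0-fold for Tslp, 4.82-fold for Il1r2 and 4.47-fold for Il33. Its fitted log2 fold change was between -0.02 and 0.05 in all 5 comparisons.

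The summed level of 10 genes known to be induced by tissue dissociation was higher in the systemic groups, though not that of every gene. The 10 summed to medians of 30769 and 27773 CPM in topical controls and cKO and to 56374 and 48457 CPM in the systemic groups. Between routes, 4 of the 10 were called higher in controls (Fos, Egr1, Atf3 and Hspa1a) and 4 in cKO (Fos, Fosb, Egr1 and Ier2), and none was called lower. Of all genes, 18.3% were called in controls and 9.22% in cKO, in either direction. Jun, with a log2 fold change of -0.07, and Fosb, with -0.79, had estimates below 0 in controls. Systemic control 6, the library of lowest Il33 and Il1r2 in its group, had the lowest sum there, 29166 CPM. Systemic controls 4 and 5, highest in Il1r2, had the highest sums, 59832 and 64148 CPM. Over the 20 libraries Il1r2 correlated with this sum with Pearson's r = 0.76 (Spearman's rho 0.80) and with r = 0.55 after group means were subtracted, as a description of libraries that share groups and handling. For Il33 the values were r = 0.53 (rho 0.57) and 0.10, and for Tslp r = -0.54 (rho -0.57) and -0.29. With the logarithm of the sum added to the model, a setting chosen after the data were seen, the route effect in controls was 0.80 for Il33 (edgeR adjusted p = 0.0721), 0.26 for Il1r2 (0.536), -0.79 for Il1rn (0.0115) and 0.58 for Il1rap (0.0377). In cKO the same model gave 0.30 for Il1r2 (0.520), -0.86 for Tslp (0.367) and 0.78 for Il1rap (0.0127). In that model 36.1% of all genes were called for route in controls and 22.6% for route in cKO. The part of dissociation in these results was otherwise not tested.

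**Figure D5:**
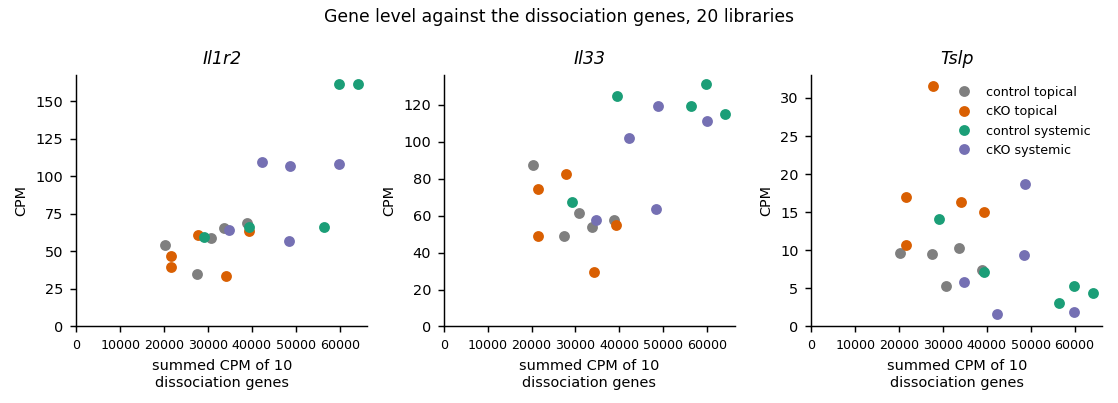
CPM of Il1r2, Il33 and Tslp against the summed CPM of 10 dissociation genes, 1 point per library coloured by group. The topical libraries lie between 20326 and 39305 CPM on the horizontal axis and most systemic ones above 39305, and Il1r2 is highest in the 2 systemic controls at 59832 and 64148.

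Genes whose pattern over the 20 libraries was most like each member were sought among the 7842 tested genes that averaged 5 CPM or more, by Spearman's rho of log2(CPM + 1). The libraries share groups and depth, so these are descriptions. Il33 ran closest with Frmd6, a FERM-domain scaffold gene of the Hippo pathway (rho 0.93, Pearson's r 0.93, 0.88 after subtracting group means), followed by Cyp4b1 and Map3k1 (rho 0.86 and 0.85). Il1r2 ran closest with Syf2 (0.91), Sec24c (0.89) and Arl4a (0.89). For Il1rap the nearest were Fpgt (0.89), the shared interleukin-6 family receptor chain Il6st (0.87) and Dock1 (0.85). Il1rn was nearest to Eif2ak1 (0.88), Oxct1 (0.87) and Sdhaf2 (0.87), and Tslp to Cars (0.81), Gypc (0.78) and Aen (0.75). The low or flat genes had looser neighbours: Rnf115, Cobll1 and Pold3 for Il1a (0.71 to 0.73), Klhl18, Trex2 and Nacc2 for Il18 (0.68 to 0.70), and Atp6v0a2, Msh6 and Tslp for Il1r1 (0.66 to 0.69). Within the set, Il33 and Il1r2 had r = 0.78, and 0.60 after subtracting group means. For Il1r1 and Tslp r was 0.59 before and 0.71 after this step, so which pair was closest depended on it.

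The other ligands of the family were mostly silent: of 5 in the table, only Il1f5 (the IL-36 receptor antagonist, now Il36rn) and Il1f9 (IL-36γ, now Il36g) were tested. Il1f5 was higher in systemic than in topical cKO, 13.97 ± 4.21 against 7.02 ± 1.04 CPM (log2 fold change 0.99, SE 0.23, edgeR adjusted p = 0.00771). Of all genes, 9.22% were called in this comparison. In controls its change was 0.24 (adjusted p = 0.501). Il1f9 was not called in any comparison. Of 10 receptors and inhibitors, 5 were tested and 1 was called, in the route comparison of cKO, where 9.22% of all genes were: Il18r1, the ligand-binding chain for IL-18, was 4.21 ± 1.38 CPM in systemic and 1.15 ± 0.361 CPM in topical cKO (1.89, SE 0.29, adjusted p = 0.000300). The summed immune markers given above, largely Cd74, were higher in systemic cKO too, while Csf1r and Cxcr2 had negative estimates. The part of immune cells in the Il18r1 result was not tested. Il1rl1, the IL-33 receptor, had 4 counts in all 20 libraries, and Crlf2, the TSLP receptor chain, averaged 0.923 CPM.

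Of 18 listed genes that mature or release these cytokines, 12 were tested. Between routes 4 of the 12 were called in controls and 3 in cKO, against 18.3% and 9.22% of all genes. In controls the inflammatory caspases Casp1 (0.85, adjusted p = 0.0353) and Casp4 (1.10, 0.0172) were higher after systemic tamoxifen, and Nlrp10 (-0.47, 0.0420) and the pore-forming Gsdme (-0.68, 0.0491) were lower, with a list median of -0.43 against 0.00 over all genes. In cKO Capn1 rose (0.86, 0.0162), and Capn2 (-1.33, 0.000198), which like Capn1 encodes a calpain able to cleave the IL-1α precursor, and Gsdme (-1.15, 0.00356) fell; the list median was -0.22 against -0.01. Of 14 receptor-proximal signalling genes, all tested, Myd88, the adaptor of IL-1 receptors, was higher (0.63, 0.0184) and Peli2 lower (-0.51, 0.0366) in systemic than in topical cKO, and none was called in controls. These 2 of 14 in cKO and 0 of 14 in controls stand against 9.22% and 18.3% of all genes, and the list medians were 0.07 and -0.02.

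Targets of IL-1 signalling did not move in a single direction. Of 20 listed genes, 13 were tested. In controls Nfkbiz, which encodes an inducible NF-kappaB cofactor, was higher after systemic tamoxifen (0.89, SE 0.31, edgeR adjusted p = 0.0469), and Tnf was lower (-1.79, SE 0.55, 0.0276). In cKO the chemokine gene Cxcl1 (-1.46, SE 0.45, 0.0466) and the iron-binding lipocalin gene Lcn2 (-2.12, SE 0.47, 0.00548) were lower after systemic tamoxifen. The 2 of 13 called in controls are near the background of 18.3% of all genes, and the 2 of 13 in cKO stand against 9.22%. The median log2 fold change of the 13 was -0.31 in controls and -0.81 in cKO, against 0.00 and -0.01 over all genes. Genotype comparisons and the interaction gave no call in any of these 5 lists, which held 46 tested genes. With 0.129%, 1.89% and 0.250% of all genes called in the topical, systemic and interaction comparisons, that count says nothing particular of the lists. In the topical genotype comparison the medians ranged from -0.22 to 0.24 over the lists.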

How the data were processed

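Raw counts per gene were used as deposited; the authors aligned with STAR and counted with featureCounts on GRCm38/mm10, per the submitters' processing notes, with versions and strand setting not given in the sources used here. Each mouse gave 1 library. The members and gene lists were chosen with earlier results of these data known. All 20 libraries were fitted together in edgeR 4.0.16 (R 4.3.3; TMM scaling, filterByExpr by group with a minimum count of 10, robust quasi-likelihood F test, 1 coefficient per group), and p-values were adjusted over 12424 genes by the Benjamini-Hochberg method, with a threshold of 0.05. CPM use TMM-scaled library sizes. Il1b was tested by an exact permutation test of log2(CPM + 1). The test was run on simulated counts with known changes. Named genes were all 9 members, the called genes of each list (up to 4 per list and comparison) and the 3 genes most like each member. DESeq2 1.42.0, other filters, covariates and left-out libraries served as alternatives. Of 25719 gene IDs, 25614 were found in GENCODE M21. All 20 columns of the table were used.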

Additional observations from a re-analysis of the deposited data

Results flagged for a closer look

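In 36 groups of 5 libraries (9 genes in 4 groups), a library that stood far from its group relative to the group's range was found in 2; chance alone gives about 1 in 20 groups. Il18 was 1.40 CPM in systemic control 1, against 0.413 CPM in the next library. Il33 was 67.2 CPM in systemic control 6, against 115 CPM in the next.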

How the results depend on the processing

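Members called stayed at 0 under every setting run for both genotype comparisons and the interaction; without the libraries of low Laptm4a only the topical genotype and the route in cKO could be fitted, and the interaction needs all groups. For route in controls (2 called), the count was 1 without the filter on low counts and with only the libraries compared, 0 with low Laptm4a as a covariate, and 0 to 3 on leaving out a library. For route in cKO (0 called), it was 1 with DESeq2's Wald test (Il1r2), 1 with low Laptm4a as a covariate or without those libraries (Tslp), 1 with the dissociation sum as a covariate (Il1rap), and 0 to 1 on leaving out a library. Replicate numbers did not pair the libraries (same-number correlations of -0.38 to 0.40). With the replicate number as a block, 3 members were called for route in cKO (Il1r2, Il33, Tslp) and 2 in controls (Il33, Il1rn), and genes called went from 31 to 0 for the interaction and from 16 to 9 for topical genotype. Il1b differences ranged over left-out libraries from 0.14 to 0.34 for topical genotype (p down to 0.0476 without topical control 3, exact test), from -0.065 to 0.0012 for systemic genotype, from -0.18 to 0.023 for route in controls and from -0.44 to -0.28 for route in cKO. Of 838 refitted fold changes of members, 68 changed sign, and no called value did. Genes called with DESeq2 were 42, 548 and 315 for topical genotype, systemic genotype and interaction, against 16, 235 and 31. With low Laptm4a as a covariate they were 0 for systemic genotype and interaction and 1 for route in controls (2277). That covariate is set by systemic cKO 2 alone, so these counts cannot show what the split contributes. Systemic genotype gave 35 with only its own libraries, and 80 to 792 on leaving out a library. The interaction gave 49 at a mean of at least 5 CPM, 49 with sex as a covariate and 16 to 473 on leaving out a library. Route in controls gave 1464 to 2523, route in cKO 744 to 1215 and topical genotype 10 to 19. The dissociation covariate gave 482, 137, 4484 and 2809 for systemic genotype, interaction, route in controls and route in cKO (1145). These changes' causes were not tested. Depth limits Il1b and Il18: 3 counts equal 0.0729 to 0.264 CPM.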
